A study of Homo sapiens with 4 samples.

Results

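The desmosomal cadherin cluster on chromosome 18 holds 7 genes, the desmocollins DSC1, DSC2 and DSC3 and the desmogleins DSG1, DSG2, DSG3 and DSG4. Its open chromatin was described in BJ, a line of human fibroblasts that is widely used in culture. The 7 members are 7 of the 20033 protein-coding genes of GENCODE release 44 on chromosomes 1 to 22, X and Y. A peak of either list was assigned to a member when its summit lay in the gene body or within 50 kb of any annotated transcription start site (TSS) of that member. Of 101142 peaks of the control list and 109486 peaks of the p63 list on these chromosomes, this rule assigned 1 peak of each. With the requirement of a −log10 q of 10 or more, the threshold the study used for open regions, it assigned 0 of 56680 and 0 of 62343. The cluster was thus a locus without an open region at the threshold in either condition.

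Desmosomes are adhesive junctions that couple the keratin filaments of neighbouring epithelial cells and hold tissues under mechanical load together. Desmogleins and desmocollins are their transmembrane cadherins, which bind partners on the next cell, and plakoglobin, plakophilins and desmoplakin link their cytoplasmic tails to the filaments. In epidermis the members are layered, with DSG3 and DSC3 in the basal layers and DSG1 and DSC1 in the upper layers, while DSG4 is known from the hair follicle and DSG2 and DSC2 are the widespread pair that the heart uses too. p63 is a master regulator of epidermis, and KLF4 takes part in the differentiation of its upper layers.

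Chromatin accessibility was measured by ATAC-seq, which uses a transposase to cut and tag DNA that is not shielded by packed nucleosomes. The BJ cells carried a reverse tetracycline transactivator and doxycycline-inducible retroviral constructs, and both groups were induced with doxycycline and treated with the Tagment DNA Enzyme. Cells of the control group (CTR, 2 samples) expressed Klf4 alone, and cells of the p63 group (2 samples) expressed DNp63alpha (ΔNp63α) together with Klf4, so that all samples carried Klf4. The lines were polyclonal, each replicate was a new induction of the same lines, and both replicates of a group share 1 deposited peak list. No value per replicate was therefore to be had, and none of the differences below was tested against the spread between replicates.

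The identity of the cells was examined with promoter regions, here regions at the threshold within 1 kb of a TSS. Of 14 fibroblast markers 12 had one in each list, with COL3A1 and PDGFRA as the exceptions. Of 14 keratinocyte and epithelial markers 3 had one in the CTR list (CDH1, KRT8 and KRT18) and 4 in the p63 list, where EPCAM was added, while KRT5 and KRT14 had none in either. Of 4 cardiac markers 0 had one among CTR regions and 1 among p63 regions (TNNT2). For scale, 42.1% of 21613 RefSeq promoters of protein-coding genes, counted in a narrower window described below, overlapped no region in either list. The windows differ, and the marker counts were not tested against this share. The p63 list held 2 peaks that lay wholly within a coding exon of TP63, and the CTR list held 0. The weakest listed summit had 6 reads and the weakest at the threshold 15 reads in both lists, and the median at the threshold was 33 reads in both.

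The peak that the p63 list placed in the cluster lay in the first intron of DSG3, the desmoglein of basal keratinocytes. It spanned chr18:31454193-31454494 (GRCh38, 302 bp), with its summit at 31454276, 6.54 kb downstream of the TSS of DSG3 and 2.16 kb upstream of the second exon. The intron measured 8.51 kb. The sequence within 100 bp of the summit is shown because it held both a p63 site and an AP-1 motif. Capitals mark the p63 site (bases 13 to 32 of 201) and the AP-1 motif (bases 108 to 114).
DSG3 intron, summit window of the p63 list, chr18:31454176-31454376, plus strand: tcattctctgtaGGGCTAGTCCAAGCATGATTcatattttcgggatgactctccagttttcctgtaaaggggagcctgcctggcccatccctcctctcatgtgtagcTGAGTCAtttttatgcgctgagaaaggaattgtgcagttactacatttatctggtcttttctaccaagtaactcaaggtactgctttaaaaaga

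The p63 site is the 20-bp element of the p53 family, a tandem of decamers, each with a C and a G at fixed places in its core. It was searched on both strands with these 4 bases required and up to 3 mismatches tolerated elsewhere in the 20. At DSG3 the site departed from the family's pattern at 1 position, base 18 of 20 counted from its first base on the plus strand. It lay at 31454188 to 31454207, with its centre 79 bp from the summit. Of its 20 bases, 15 lay inside the deposited peak and 5 before the peak's first base.

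The single peak of the CTR list lay at the other end of the cluster. It spanned chr18:31555999-31556349 (351 bp), with its summit at 31556117, 7.11 kb past the end of DSG2, in an exon of the antisense long noncoding gene DSG2-AS1 and 759 bp from a start of that gene. It was 57.9 kb from the canonical TSS of DSG2 and entered the cluster only through the last annotated start of a DSG2 transcript, at 31519891, which was 36.2 kb away. Capitals mark a match to the motif of CTCF, the factor that anchors chromatin loops (bases 53 to 65 of 201, searched over 13 bp with at most 1 mismatch on both strands).
DSG2-AS1 exon, summit window of the CTR list, chr18:31556017-31556217, plus strand: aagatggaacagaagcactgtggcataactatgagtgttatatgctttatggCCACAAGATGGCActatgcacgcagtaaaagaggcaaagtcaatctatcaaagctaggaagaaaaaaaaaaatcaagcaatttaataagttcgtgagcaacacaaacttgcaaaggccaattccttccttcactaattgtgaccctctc

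This window held no p63 site and no AP-1 motif. A CTCF match was found at 8.98% of all CTR summits and at 7.87% of the 21614 CTR peaks without any overlapping p63 peak.

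Both peaks were weak. The DSG3 peak had a fold enrichment of 6.58 over the peak caller's background, a −log10 p of 10.7 and a −log10 q of 8.46. Its summit corresponded to 13 reads (exact Poisson 95% interval 6.92 to 22.2, which covers counting error only). The DSG3 peak ranked 68885 of 109486 peaks of the p63 list by q, and 36.0% of the list had a lower q. The DSG2-AS1 peak had a fold enrichment of 5.97, a −log10 p of 9.34 and a −log10 q of 7.15, and its summit corresponded to 12 reads (6.20 to 21.0). It ranked 67970 of 101142 peaks of the CTR list, and 31.5% of the list had a lower q. The background of each of these peaks was the lowest in its list, 1.13 reads (p63) and 1.18 reads (CTR). This lowest value was shared by 25.8% of p63 peaks and 26.3% of CTR peaks, so neither fold describes a background particular to the locus. The values of the lists come from separate peak calls and were not scaled to each other.

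Neither peak overlapped a peak of the other list at any q, and the peaks were each other's nearest, 101.5 kb apart. Such absence was frequent at this depth. Of the 4205 p63 peaks with 13 reads at the summit, 1607 (38.2%) had no overlapping CTR peak, and of the 4188 CTR peaks with 12 reads, 1579 (37.7%) had no overlapping p63 peak. The lower bound for the 13 reads of the DSG3 peak, 6.92, was close to the 6 reads of the weakest listed summits. Whether the DSG3 intron was more accessible in p63 cells than in CTR cells could not be decided at this depth.

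**Figure D1:**
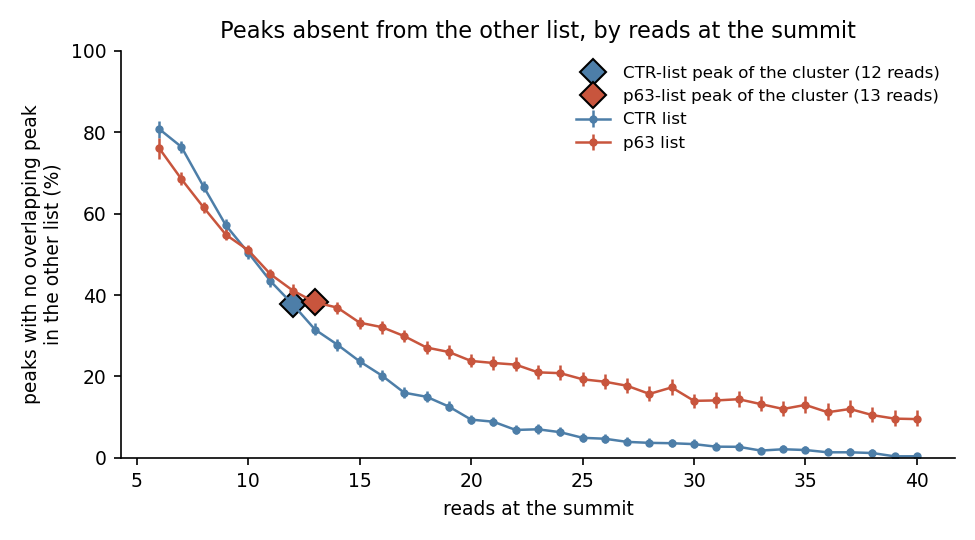
Percentage of peaks (vertical axis) with no overlapping peak in the other list, by the number of reads at the summit (horizontal axis, up to 40), for the CTR list (blue) and the p63 list (red). Points are all peaks with that read number, bars are 95% Wilson intervals, and diamonds mark the read number of the peak of the cluster in each list, 13 reads in the p63 list (38.2% absent) and 12 reads in the CTR list (37.7%).

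The p63 site was then placed among all such sites of the cluster, which was done after the peak had been seen. The windows of the rule covered 0.558 Mb, from 30956918 to 31212856 and from 31268160 to 31569891. They held 15 p63 sites with at most 3 mismatches (26.9 per Mb, against 45.7 per Mb over the genome and 39.1 per Mb over chromosome 18), 3 with at most 2 and 1 with at most 1. The site of the DSG3 intron was the 1 with a single mismatch, and it was the only one of the 15 within 100 bp of a summit of either list. Its sequence and those of the sites with 2 mismatches, in an intron of DSC3 and upstream of DSC1, are given for comparison, with the required C and G bases in capitals.
DSG3 intron, chr18:31454188-31454207, 1 mismatch: gggCtaGtccaagCatGatt
DSC3 intron, chr18:31027285-31027304, 2 mismatches: agaCgtGcttgaaCaaGatt
upstream of DSC1, chr18:31206853-31206872, 2 mismatches: aacCttGcttgtgCttGctc

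The DSC3 site lay 427 kb from the nearest summit of the p63 list and the site upstream of DSC1 247 kb. Of the other 12 sites, with 3 mismatches each, none was nearer than 28.0 kb to a p63-list summit. They lay in introns of DSC2, DSG1, DSG4, DSG2, DSG1-AS1 and TTR or between genes, and the nearest to a CTR summit was 9.11 kb away.

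Over the genome, sites of this quality were seldom close to a peak. Of 3535 sites with 0 or 1 mismatch, 449 (12.7%) lay wholly within 100 bp of a p63-list summit of any q and 41 (1.16%) within 100 bp of a CTR-list summit. With regions at the threshold, 337 of the 3535 (9.53%) lay in a region of the p63 list and 69 (1.95%) in a region of the CTR list. Read from the peaks, 1.99% (32) of the 1607 p63 peaks with 13 reads and no CTR counterpart had a site with 0 or 1 mismatch, and 9.89% had a site with at most 3. A site with 0 or 1 mismatch stood at 0.404% of all p63-list peaks and at 0.761% (32) of the 4205 with 13 reads. A p63 site with at most 3 mismatches stood at 3.95% of all summits of the p63 list. Among the 29687 p63 peaks without any overlapping CTR peak the share was 10.6%. The CTR shares were 0.919% of all summits and 0.477% of the 21614 peaks without any overlapping p63 peak. The AP-1 motif (TGACTCA or TGAGTCA) was common, at 22.7% of p63-list summits. The match at DSG3 is 1 site at 1 peak, and binding of p63 to it was not analysed here.

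The members were next described one by one in the order of the chromosome. DSC3 (ENSG00000134762.17, minus strand, 30989365 to 31042815, 16 exons), the desmocollin of basal layers, had 0 peaks of any q in both lists. Its nearest region at the threshold lay 889 kb from the canonical TSS among CTR regions and 777 kb among p63 regions. DSC2 (ENSG00000134755.18, minus strand, 31058840 to 31102522, 16 exons), the desmocollin found in most desmosomes, also had 0 peaks, with nearest regions at 830 kb and 717 kb. DSC1 (ENSG00000134765.10, minus strand, 31129236 to 31162856, 16 exons), the desmocollin of the upper epidermis, had 0 peaks, with nearest regions at 769 kb and 657 kb.

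DSG1 (ENSG00000134760.6, plus strand, 31318160 to 31359246, 15 exons), the desmoglein of the upper epidermis, had 0 peaks, and its nearest regions lay at 614 kb and 502 kb. DSG4 (ENSG00000175065.12, plus strand, 31376777 to 31414912, 16 exons), the hair follicle desmoglein, had 0 peaks, with nearest regions at 555 kb and 443 kb. DSG3 (ENSG00000134757.5, plus strand, 31447741 to 31478702, 16 exons) had 0 CTR peaks and the 1 p63 peak described above, and its nearest regions at the threshold lay at 484 kb and 372 kb. DSG2 (ENSG00000046604.14, plus strand, 31498177 to 31549008, 15 exons), the desmoglein of heart and simple epithelia, had no peak in its gene body. Its window held both weak peaks of the cluster, since the DSG3 intron lies 43.9 kb from its canonical TSS, and its nearest regions at the threshold lay at 434 kb and 322 kb.

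The desmocollins were thus the members farthest from an open region and DSG2 the nearest in both lists. This order follows from the position of the genes, because within a list the nearest region at the threshold was the same for all 7 and lay beyond DSG2. In the p63 list it was the region at 31819575 to 31819898, between genes. In the CTR list it was a different region, in an intron of TRAPPC8 at 31931615 to 31932177. The median distance over the 7 members was 614 kb to a CTR region and 502 kb to a p63 region, against 0.310 kb and 0.313 kb over all protein-coding genes. In the CTR list 1.82% of protein-coding genes were as far from a region as DSG2 or farther, and 0.824% as far as DSC3. In the p63 list these shares were 2.26% and 1.03%.

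**Figure D2:**
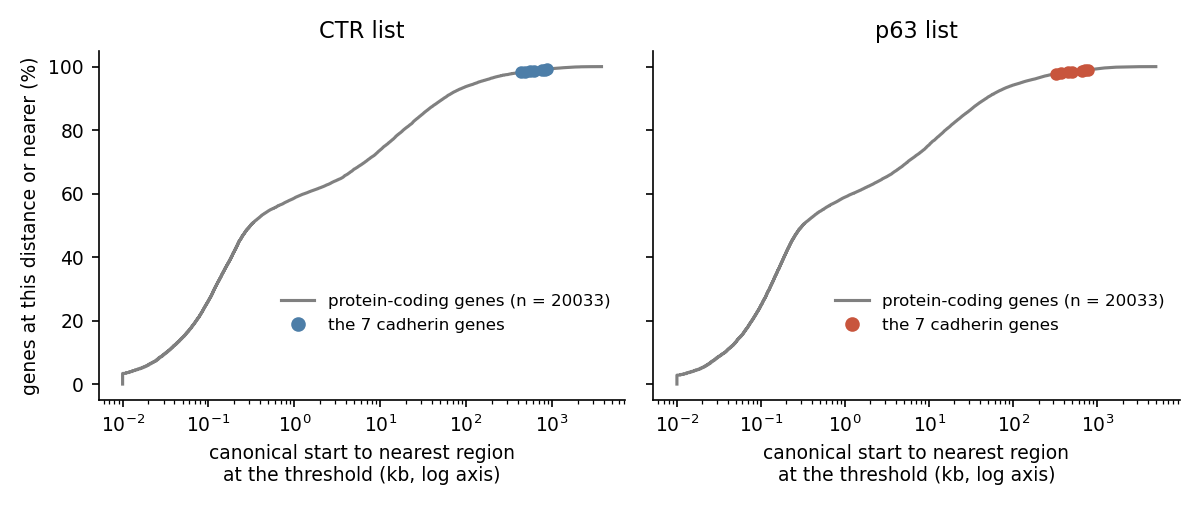
Cumulative percentage of protein-coding genes (vertical axis) by the distance from the canonical TSS to the nearest region at the threshold (horizontal axis, kb, log axis, with distances under 0.01 kb drawn at 0.01), in the CTR list (left) and the p63 list (right). The grey line is all 20033 genes and the dots are the 7 cadherin genes, which sit between 434 and 889 kb on the left and between 322 and 777 kb on the right.

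All 7 members lacked a region at the threshold in both lists, which held for 1404 of 20033 protein-coding genes (7.01%) and for 37 of 266 on chromosome 18 (13.9%). The 7 genes are neighbours in a single stretch of DNA and are not 7 independent cases. A p63-only region is a region at the threshold in the p63 list without an overlapping region of the CTR list. Without any region in the p63 list, 0 of 7 members could have one, so this count adds nothing to the absence of regions. Over all protein-coding genes, 58.2% had at least 1. p63-only regions made up 23.9% of the p63 list and CTR-only regions 16.5% of the CTR list. The density of regions was 19.3 per Mb over the genome and 14.2 per Mb over chromosome 18 for CTR, and 21.2 and 15.5 per Mb for p63. A count of 0 in 0.558 Mb allows a density of up to 5.38 per Mb (3 counts), a limit that takes regions as evenly spread and covers counting error only, whereas regions cluster along the genome and gaps of 1 Mb or more numbered 223 under CTR and 214 under p63.

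The stretch without regions reached well past the cluster. In the CTR list it ran from 29750022 to 31931614, or 2.18 Mb, and was the 76th longest of 56439 gaps between neighbouring regions that held no undetermined base (median 19.6 kb). In the p63 list it ran from 29750067 to 31819574, or 2.07 Mb, the 85th of 62106 (median 17.6 kb). Both gaps held the same 10 protein-coding genes, the 7 members with TTR, which encodes the thyroxine carrier transthyretin, the galactosyltransferase gene B4GALT6 and SLC25A52, which encodes a mitochondrial carrier. Gaps of 1 Mb or more held 2.09% of protein-coding genes by CTR regions and 2.02% by p63 regions. With peaks of any q, the gap of the CTR list ran from 29840363 to 31555998 (1.72 Mb, 90th of 100851) and held all 7 members. That of the p63 list ran from 30246038 to 31454192 (1.21 Mb, 146th of 109200), ended at the DSG3 peak and held DSC1, DSC2, DSC3, DSG1 and DSG4.

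**Figure D3:**
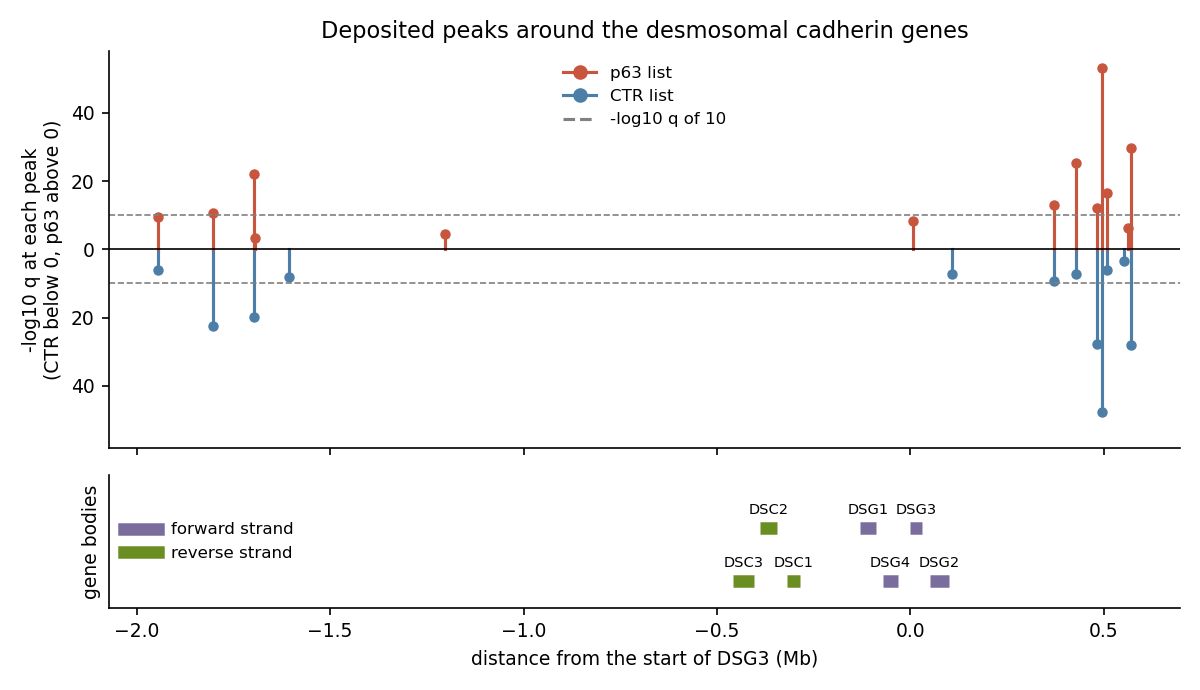
Peaks of any q around the cluster by their distance from the start of DSG3 (horizontal axis, Mb), with the −log10 q of each peak as its height, upwards for the p63 list and downwards for the CTR list, and the gene bodies of the 7 members in the lower panel. The dashed lines mark a −log10 q of 10, and the stems nearest to the gene bodies are the DSG3 peak (−log10 q 8.46) and the DSG2-AS1 peak (7.15), both short of these lines.

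Peaks outside the cluster showed that the flanks were listed in both conditions. On the side of DSC3 the nearest region lay at 29749772 to 29750021 in the CTR list (24 summit reads), and its p63-list counterpart had 25 reads. On the side of DSG2, the nearest region of the p63 list had 17 reads (−log10 q 12.96), and the overlapping CTR peak had 14 reads (9.25) and fell short of the threshold. In an intron of TRAPPC8 a p63 region with 27 reads (31876618 to 31877055, −log10 q 25.3) overlapped a CTR peak with 12 reads (7.15), whereas the next region had 33 reads under CTR and 17 under p63. The lists do not give read numbers between peaks, so that a closed locus and a locus covered by few reads cannot be told apart within the gap.

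The promoters of the members were of unlike composition. RefSeq promoters (250 bases before to 50 after the start, GRCh38.p14) were found for 6 of the 7 members, 7 promoters in all with 2 for DSC2, and none for DSG4. The CpG ratio, the number of CG dinucleotides over that given by the C and G content, was 0.831 for DSC3 and 0.826 for DSG2. It was 0.698 and 0.550 for the promoters of DSC2, 0.414 for DSG3, 0.192 for DSG1 and 0.118 for DSC1. The ratio was thus highest at DSC3 and DSG2 and lowest at DSG1 and DSC1. It did not divide the members by layer, since DSG3, a basal member like DSC3, and DSC2, a widespread member like DSG2, lay in between. The 250 bases upstream of DSG2, DSC3, DSG1 and DSC1 are shown, from 5′ to 3′ on the strand of the gene, with CG dinucleotides in capitals.
DSG2, chr18:31497927-31498176, plus strand: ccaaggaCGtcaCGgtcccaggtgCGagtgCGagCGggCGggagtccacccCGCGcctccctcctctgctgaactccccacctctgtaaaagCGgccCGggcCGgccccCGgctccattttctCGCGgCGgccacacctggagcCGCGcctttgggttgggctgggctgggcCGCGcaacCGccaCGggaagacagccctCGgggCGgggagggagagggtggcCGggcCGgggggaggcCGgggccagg
DSC3, chr18:31042743-31042992, minus strand: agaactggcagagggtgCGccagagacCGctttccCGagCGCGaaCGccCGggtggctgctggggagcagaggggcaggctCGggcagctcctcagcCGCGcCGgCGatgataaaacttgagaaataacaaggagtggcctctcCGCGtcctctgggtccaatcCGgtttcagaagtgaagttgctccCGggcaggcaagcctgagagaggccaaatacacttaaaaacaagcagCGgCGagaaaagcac
DSG1, chr18:31317910-31318159, plus strand: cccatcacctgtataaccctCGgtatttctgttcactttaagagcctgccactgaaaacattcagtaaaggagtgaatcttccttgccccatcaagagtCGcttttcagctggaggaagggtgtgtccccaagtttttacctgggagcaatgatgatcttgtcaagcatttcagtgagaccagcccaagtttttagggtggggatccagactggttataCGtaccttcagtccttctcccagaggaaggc
DSC1, chr18:31162857-31163106, minus strand: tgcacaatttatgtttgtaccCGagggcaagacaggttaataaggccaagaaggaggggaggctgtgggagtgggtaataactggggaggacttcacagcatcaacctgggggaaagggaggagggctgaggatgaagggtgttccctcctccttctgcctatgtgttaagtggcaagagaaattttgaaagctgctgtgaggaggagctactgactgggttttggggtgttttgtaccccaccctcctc

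None of the 7 promoters overlapped a peak of any q in either list. Of 21613 RefSeq promoters of protein-coding genes, 9099 (42.1%) overlapped no region at the threshold in either list, and this share depended on composition. Among promoters with a ratio from 0.8 to 1, the class of DSC3 and DSG2, 17.3% of 6641 had no region in either list. Among promoters with a ratio under 0.2, the class of DSC1 and DSG1, 89.8% of 2878 had none. For the classes of DSC2 and DSG3 in between, the shares were 59.4% (0.4 to 0.6) and 28.7% (0.6 to 0.8). SLC25A52, in the same gap, had a promoter with a ratio of 1.03 and no peak of any q either.

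**Figure D4:**
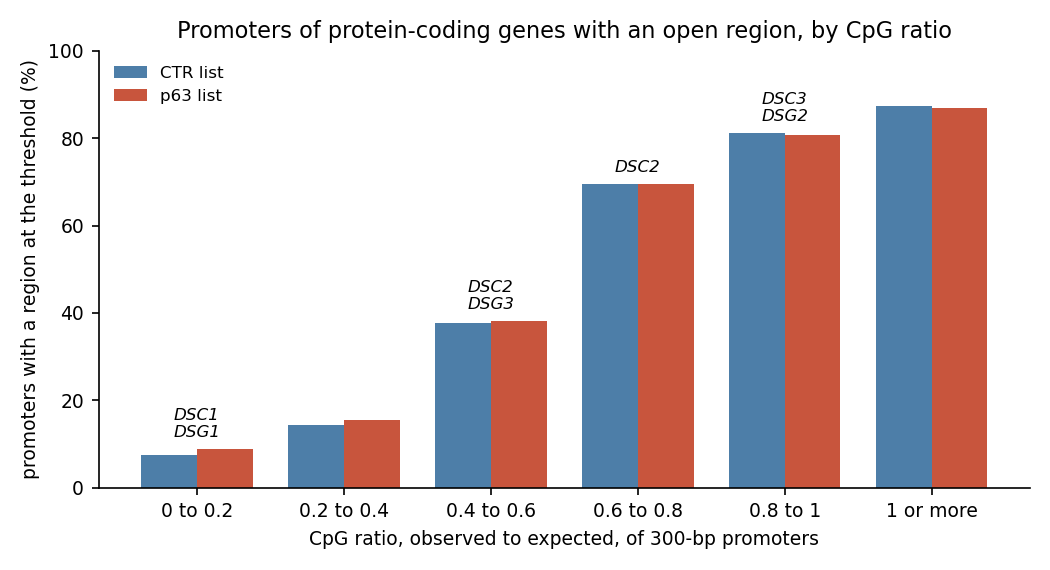
Percentage of RefSeq promoters of protein-coding genes that overlap a region at the threshold (vertical axis), by CpG ratio (horizontal axis), in the CTR list (blue) and the p63 list (red). Gene symbols mark the class of each promoter of the cluster, none of which overlapped a peak, and the share of open promoters rises from 7.61% (CTR) and 8.96% (p63) in the lowest class to 87.4% and 86.9% in the highest.

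Motifs were also counted in the 7 promoters, a number too small to tell a count of 0 from the shares of all promoters. The KLF motif (GGGTGTG or GGGCGTG, both strands) occurred in 2 of 7, the DSG1 promoter and 1 of the DSC2 promoters, against 17.8% of all promoters. The AP-1 motif was in 0 of 7 (4.03% of all), the TEAD motif CATTCC in 0 (12.2%), the CTCF motif in 0 (3.77%) and a p63 site in 0 (1.14%).

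Other genes of the desmosome were counted under the same rule. All 8 of them (DSP, JUP, PKP1, PKP2, PKP3, PKP4, PERP and CDSN) had regions at the threshold in both lists, 45 CTR regions and 54 p63 regions, as had 90.3% of protein-coding genes. Of these regions, 8 (17.8%) were CTR-only and 17 (31.5%) p63-only, against 16.5% and 23.9% over all regions. A p63 site was found at 2 of the 17, near PKP1 and PKP2. The nearest share over the genome was 10.6%, at p63 peaks of any q without any overlapping CTR peak, so 2 of 17 was not set apart from it. Promoter regions were found in each list for DSP, which encodes desmoplakin, JUP (plakoglobin), PKP3, PKP4 and the tetraspan gene PERP. These were 5 of the 8 genes. Of all RefSeq promoters, counted in a narrower window, 42.1% overlapped no region in either list. The count of 5 of 8 was thus not set apart from other genes. PKP1, the plakophilin of the upper epidermis, had 15 regions in the p63 list, of which 10 were p63-only. It thus supplied 10 of the 17 p63-only regions, and the share of 31.5% rested largely on this 1 gene. The strongest of the 10 lay in an intron at chromosome 1, 201288604 to 201289127 (−log10 q 43.3). DSP had 1 p63-only region (−log10 q 32.2) and JUP and PERP had 0. The count of 8 of 8 was thus near the share over all genes.

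**Figure D5:**
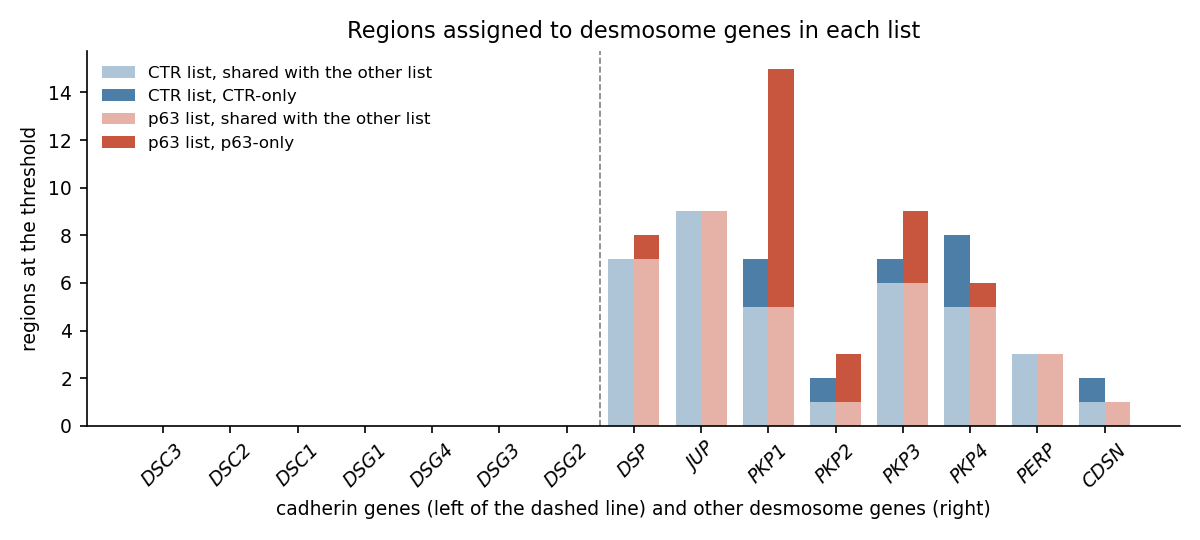
Number of regions at the threshold (vertical axis) assigned to each gene of the desmosome in the CTR list (blue) and the p63 list (red), with regions shared between the lists in pale and list-only regions in full colour. The 7 cadherin genes, left of the dashed line, have 0 in both lists, and the other 8 genes have 45 CTR and 54 p63 regions.

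For comparison on the same chromosome, CDH2, the classical cadherin of mesenchymal cells, which ends 2.81 Mb before DSC3, had 9 CTR regions and 8 p63 regions, of which 2 were CTR-only and 1 was p63-only. The 10 clade B serpin genes of chromosome 18, another clustered family with epidermal members, all had regions in both lists, 22 CTR regions and 23 p63 regions, against 84.6% of the protein-coding genes of chromosome 18. Of these regions, 4 (18.2%) were CTR-only and 5 (21.7%) p63-only, near the 16.5% and 23.9% over all regions. The list-only counts of CDH2 are too small to be set against these shares. Both comparisons were chosen after the values had been seen.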

How the data were processed

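ATAC-seq was performed by the authors on 4 samples, 2 per group as the labels give the genotype. Reads were aligned by the authors with Bowtie2 2.3.4.3 against hg38. They called peaks from both replicates of each group by MACS2 and deposited 1 list per group. The options of MACS2, the removal of duplicates and the shift for the transposase are not given in the sources used here. The deposited columns hold a fold enrichment, −log10 p and −log10 q, and a display score derived from q, which was not used. The fold was taken as the ratio of summit to background reads with 1 added to each. Both lists had unbroken peak numbering. Reads at a summit were solved from the fold and the −log10 p of the peak caller's Poisson model within 0.001 for all but 16 peaks in each list, after a check on simulated data. Duplicates and read extension were not known, so intervals cover counting error only.

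Peaks on chromosomes 1 to 22, X and Y were assigned by GENCODE 44 and matched by 1 bp of overlap. The rule named the 7 members, each list-only region, the 5 strongest regions and each region with a p63 site. Other desmosome genes were given by counts. No test was run, because the lists hold no replicate values. The members and gene lists were chosen with earlier results of these data known. The alternatives were other thresholds, windows, TSSs, overlaps, merged peaks, equal numbers of peaks and motif settings. No column of per-sample values was left unmatched. Analyses used python 3.11.15, numpy 2.4.6, scipy 1.17.1 and matplotlib 3.10.9.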

Additional observations from a re-analysis of the deposited data

How the results depend on the processing

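The counts of 0 regions in each list, 0 CTR-only and 0 p63-only regions stayed at 0 with the stricter threshold, both other windows, canonical TSSs alone and touching peaks merged. The stricter threshold, the window of 10 kb and canonical TSSs alone can only lower a count, so they could not change a 0. The window of 100 kb could have added regions and added none. The list-only counts were also 0 with an overlap of 50%, absence at any q and equal numbers of top-ranked peaks. The count of p63-only regions with a p63 site was 0 with other mismatch limits and motif windows. These outcomes were fixed in advance, because the cluster held no region at the threshold to which they could apply. With all deposited peaks the CTR list, the p63 list, the CTR-only and the p63-only regions each counted 1, the p63-only regions with a p63 site counted 1 (also 1 with at most 2 or at most 4 mismatches, and 0 within 50 bp of the summit or wholly within the peak), and 5 members were without a region. With all deposited peaks and canonical TSSs alone, an alternative chosen after seeing the data, the p63 count and the p63-only count were 1 and the CTR count was 0. The share of protein-coding genes without a region, 7.01%, was 4.11% with all deposited peaks, 12% at a −log10 q threshold of 20, 15.9% within 10 kb, 4.51% within 100 kb and 7.38% with canonical TSSs alone, alternatives also chosen after seeing the data. The change in rank of paired regions could not be computed, since the cluster held no paired region. No replicate could be left out, and no paired analysis was possible because each list pools both replicates of its group. Depth limits the description to summits of 6 reads or more, and to 15 or more at the threshold.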
